A study of Rattus norvegicus with 120 samples.

Results

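The genes described here drive DNA replication and cell division. A list of 41 symbols was looked up by gene symbol among the 30560 genes of the count tables, and 40 were found: 10 genes of DNA replication (Mcm2 to Mcm7, Rrm2, Tyms, Tk1 and Pcna), 28 genes of mitosis and cytokinesis, and the transcription factors Foxm1 and Mybl2. E2f1 was not analysed here. Members were chosen by symbol and by no measured value, though earlier results of these data were known when the list was drawn up. RNA was sequenced from kidney and heart of ZSF1 rats aged 30 weeks, in 120 libraries that form 12 groups of 10. Obese ZSF1 rats lack a working leptin receptor and develop diabetes, high blood pressure and kidney disease, while their lean counterparts do not become obese. All compounds were given in the chow, and each study had its own vehicle group. Study A held lean rats on vehicle, obese rats on vehicle and obese rats on BT2, an inhibitor of BDK, the kinase that switches off the branched-chain ketoacid dehydrogenase. Study B held obese rats on vehicle, on empagliflozin, an inhibitor of the glucose transporter SGLT2, and on BT2 plus empagliflozin (the combination), with no lean rats. The kidney is the whole organ or the cortex per the series' text, and the labels do not say which for each library. Obese rats on vehicle are thus the reference of both studies, and every treated group carries the obese genotype.

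Dividing cells make their cell cycle proteins in waves. In G1 and S phase the E2F factors switch on the replication genes: the MCM proteins form the ring-shaped helicase that unwinds DNA, ribonucleotide reductase (Rrm2 is its regulated subunit), thymidylate synthase (Tyms) and thymidine kinase (Tk1) supply deoxynucleotides, and Pcna is the sliding clamp that holds DNA polymerase on its template. In G2 and M phase the DREAM complex gives way to MYBL2 (B-Myb) and FOXM1, and the genes of spindle, kinetochore and cytokinesis are transcribed, many of them from promoters that carry a CHR element and CCAAT boxes. Most tubule cells of a healthy adult kidney are quiescent, and cell cycle transcripts in kidney rise when injured tubule cells re-enter the cycle or when dividing leukocytes are present. Adult heart muscle cells rarely divide.

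Starts of transcription showed how the replication and mitosis genes differ in sequence. RefSeq windows on the rat build GRCr8, from 250 bases before to 50 after each start, were matched by symbol to 32 of the 41 listed genes (33 windows, since Kif2c has 2). Mcm4, Rrm2, Ccna2, Aurkb, Ube2c, Tpx2, Racgap1, Foxm1 and E2f1 had no window. Each window was searched on both strands for the CHR element TTTGAA, for CCAAT, and for an E2F site in 4 spellings. These are TTCCCGC as the first spelling, with TTCGCGC as the next, then the letters TTGCCGC, and last the letters TTGGCGC. Matches of different motifs may overlap. The 6 stretches printed here end at the base before the start and are shown because these genes carry the main results that follow: 4 mitosis genes and 2 helicase genes that all rose in obese kidney. Capitals mark every match of any of the 3 motifs on either strand, and all other bases are in lower case, written 5′ to 3′ on the gene's own strand.
Cdk1 (GRCr8 chr20:19265043-19265292, plus strand): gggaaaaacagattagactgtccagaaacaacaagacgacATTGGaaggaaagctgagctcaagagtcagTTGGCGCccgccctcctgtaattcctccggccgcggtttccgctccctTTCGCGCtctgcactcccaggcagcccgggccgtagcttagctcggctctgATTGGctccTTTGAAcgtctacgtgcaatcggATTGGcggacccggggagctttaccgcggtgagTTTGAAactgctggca
Mki67 (GRCr8 chr1:199952594-199952843, minus strand): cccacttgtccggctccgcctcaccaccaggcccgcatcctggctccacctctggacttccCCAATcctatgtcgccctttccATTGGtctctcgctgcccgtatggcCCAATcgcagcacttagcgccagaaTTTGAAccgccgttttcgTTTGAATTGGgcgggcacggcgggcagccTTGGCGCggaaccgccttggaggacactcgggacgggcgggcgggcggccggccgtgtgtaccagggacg
Top2a (GRCr8 chr10:84473094-84473343, minus strand): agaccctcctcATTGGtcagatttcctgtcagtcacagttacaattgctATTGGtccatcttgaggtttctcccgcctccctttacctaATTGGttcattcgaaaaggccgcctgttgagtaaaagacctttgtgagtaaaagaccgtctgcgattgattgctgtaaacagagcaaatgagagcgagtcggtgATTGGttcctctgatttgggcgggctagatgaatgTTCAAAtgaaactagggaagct
Cdc20 (GRCr8 chr5:137255800-137256049, minus strand): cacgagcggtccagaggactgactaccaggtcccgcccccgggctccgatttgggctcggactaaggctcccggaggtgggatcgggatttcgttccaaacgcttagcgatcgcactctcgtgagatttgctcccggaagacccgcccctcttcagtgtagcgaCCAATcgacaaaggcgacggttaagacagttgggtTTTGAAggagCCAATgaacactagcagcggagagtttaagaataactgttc
Mcm5 (GRCr8 chr19:13488563-13488812, plus strand): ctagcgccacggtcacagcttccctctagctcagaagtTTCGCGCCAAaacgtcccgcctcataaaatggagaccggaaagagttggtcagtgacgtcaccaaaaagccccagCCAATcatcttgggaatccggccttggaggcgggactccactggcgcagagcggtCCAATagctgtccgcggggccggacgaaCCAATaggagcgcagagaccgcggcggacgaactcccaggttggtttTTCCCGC
Mcm6 (GRCr8 chr13:42404353-42404602, minus strand): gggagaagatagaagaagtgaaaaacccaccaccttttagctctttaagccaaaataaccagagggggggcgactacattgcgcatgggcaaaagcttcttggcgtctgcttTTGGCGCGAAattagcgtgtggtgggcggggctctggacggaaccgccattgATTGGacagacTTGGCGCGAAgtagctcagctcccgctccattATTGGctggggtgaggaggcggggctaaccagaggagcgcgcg

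The printed stretches were picked, so they do not stand for the shares of their classes. The Cdk1 stretch holds 2 CHR matches, 3 CCAAT matches and 2 E2F matches. The Mki67 stretch holds 2, 4 and 1 in the same order, and those of Top2a (1, 4 and 0) and Cdc20 (1, 2 and 0) hold no E2F match. The Mcm5 stretch holds 3 CCAAT and 3 E2F matches and the Mcm6 stretch 2 and 4, and neither holds a CHR match. The Mcm2 stretch, which is not printed, holds 2 CHR matches. Over whole windows, a CHR match was present in 15 of 24 mitosis windows (62.5%), in 1 of 8 replication windows (12.5%) and in 18.3% of all 33469 rat windows. An E2F match was present in 6 of 8 replication windows (75.0%), in 4 of 24 mitosis windows (16.7%) and in 9.52% of all windows. CCAAT was frequent in both classes, at 70.8% of mitosis and 62.5% of replication windows against 37.5% of all, and 54.2% of mitosis windows held CHR and CCAAT together against 7.41% of all. The stretches of 7 of the 32 genes hold none of the 3 motifs: Melk, Aurka, Bub1, Bub1b, Kif2c, Tk1 and Mybl2. A CHR match of Bub1b spans the start, so it counts in the whole window and not in the stretch. The span of 100 bases before the start lies inside the window, so its shares cannot be higher. There, CHR was in 41.7% of mitosis and 0% of replication windows against 5.78% of all. CHR with CCAAT was in 33.3% of mitosis windows against 1.04% of all. E2F was in 62.5% of the replication windows, 29.6% of the windows of other replication genes and 3.63% of all. A match describes letters in a window and is not a measured binding site.

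**Figure D1:**
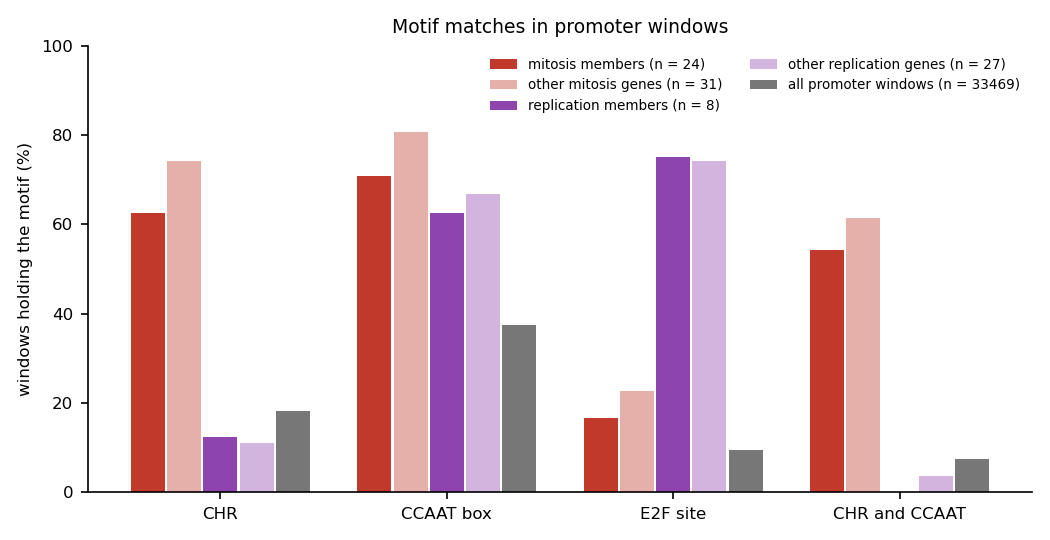
Share of promoter windows (percent, bars from 0) that hold a CHR match, a CCAAT match, an E2F match or CHR and CCAAT together, for the mitosis genes described here (24 windows), other mitosis genes (31), the replication genes described here (8), other replication genes (27) and all 33469 windows. CHR bars are highest in both mitosis sets (62.5% and 74.2%) and E2F bars in both replication sets (75.0% and 74.1%).

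Levels are given as CPM, counts per 1000000 counts of a library after scaling by TMM factors, as the lowest, median and highest library of a group. Libraries held 22774 to 54856493 counts in kidney and 6735299 to 23575895 in heart. BT2 replicate 2 and study B vehicle replicate 8 of kidney were below 1000000 counts and entered no fit, so these groups hold 9 libraries. Lean kidney replicate 8 is the deepest library and stands apart: it carries muscle transcripts, and its Havcr1, the tubule injury marker, was at 160 CPM against 3.17 to 22.6 in the other lean kidneys. Kidney replicate 1 of the empagliflozin group also stands apart, with the leukocyte gene Ptprc at 80.8 CPM against 15.5 to 32.1 in the rest of its group. Results that rest on either library are given with and without it. In all, 6 kidney and 11 heart libraries were flagged for transcripts of another tissue. In kidney the rule was Actc1 or Alb above 100 times the kidney median, which flagged lean replicate 8, BT2 replicate 2 and combination replicates 1, 4, 5 and 7. In heart it was the atrial gene Myl7 above 5 times or the skeletal muscle gene Myh4 above 100 times the heart median. Myh4 flagged only BT2 replicate 4 and combination replicate 9. The other flagged hearts had high Myl7, which marks atrial muscle of the same organ. Kidney transcripts in heart were not part of the rule. Lean heart replicate 8 was not flagged and stays in the fits without flagged libraries. It had the highest proximal tubule sum of its group (823.1 CPM, group median 541.6) and the highest injury sum (187.0 CPM, group median 31.66). Its part in the heart results was not tested. No marker gene that was found was at 0 in every kidney library. Differences are log2 fold changes with standard errors from edgeR's quasi-likelihood test within a study, and a gene is called, and said to have risen or fallen, at a Benjamini-Hochberg adjusted p under 0.05 over all genes tested.

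Obese kidneys on vehicle were compared with lean kidneys on vehicle to ask how the disease model differs before any treatment. Cell cycle genes were higher in obese kidney almost without exception: 35 of the 40 rose, Melk fell, and Tyms, Kif11, Tpx2 and Foxm1 did not pass the test. Of all genes tested, 32.0% were called and 16.9% were called higher. The median log2 fold change was 1.41 over the 40 genes and -0.02 over all genes. Mitosis genes showed the larger differences, with a median of 1.56 and 25 of 28 higher, against a median of 0.53 and 9 of 10 higher among the replication genes. For 14 genes every obese library lay above every lean library, which held for 2.42% of all genes. In these bulk libraries, more dividing cells and more RNA of these genes per cell cannot be told apart.

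Among the helicase subunits, Mcm5 and Mcm6 separated the groups fully. Mcm5 had 1.33, 2.73 and 4.09 CPM in lean and 4.79, 6.72 and 9.24 in obese kidney, a log2 fold change of 1.38 ± 0.19 (SE, adjusted p = 1.683e-05). Mcm6 had 2.77, 4.12 and 5.79 CPM in lean and 6.76, 10.0 and 12.3 in obese kidney, a change of 1.23 ± 0.12 (adjusted p = 4.617e-07). The lowest obese kidney exceeded the highest lean kidney for both, and Mcm3 behaved likewise with a change of 1.43. Mcm2, another subunit of the ring, had 9.37, 13.0 and 14.3 CPM in lean and 13.5, 17.8 and 21.3 in obese kidney, and the change was 0.49 ± 0.09 (adjusted p = 0.000444). Those ranges overlapped at their edge. Mcm4 rose by 0.57 and Mcm7 by 0.21, the smallest of the 35 rises, so subunits of 1 complex differed in the size of their change.

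Enzymes of nucleotide supply split further. Rrm2 had 0.869, 2.74 and 4.46 CPM in lean and 4.90, 8.05 and 11.9 in obese kidney, a change of 1.54 ± 0.21 (adjusted p = 1.805e-05) with no overlap. Tyms had 27.8, 31.8 and 37.5 CPM in lean and 24.7, 33.8 and 44.7 in obese kidney, with a difference of 0.12 ± 0.09 (adjusted p = 0.299) and ranges nested in each other. Tk1, which salvages thymidine, rose by 0.44. Pcna had 41.1, 46.9 and 55.4 CPM in lean and 48.9, 53.3 and 64.9 in obese kidney, a small rise of 0.24 ± 0.06 (adjusted p = 0.0044) with overlapping ranges. All 10 obese kidneys nevertheless exceeded the lean median for Pcna.

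Chromosome proteins and the cyclins rose several-fold. Mki67, which coats mitotic chromosomes and is the usual marker of cycling cells, had 2.77, 3.70 and 9.80 CPM in lean and 9.61, 15.1 and 20.2 in obese kidney, a change of 1.65 ± 0.22 (3.14-fold, adjusted p = 1.046e-05). The single overlap came from lean replicate 8, since the other lean kidneys lay between 2.77 and 5.47, and the change was 1.92 without it. Top2a, the topoisomerase that untangles sister chromatids, had 2.07, 2.37 and 5.45 CPM in lean and 7.24, 12.7 and 15.9 in obese kidney, a change of 1.85 ± 0.20 (adjusted p = 1.149e-06) with the groups fully apart. Cdk1, the kinase that starts mitosis, had 0.658, 1.46 and 3.77 CPM in lean and 3.89, 5.98 and 7.50 in obese kidney, a 3.08-fold rise (adjusted p = 3.502e-05). Its partner Ccnb1 (cyclin B1) had 0.638, 1.88 and 3.35 CPM in lean and 3.87, 5.21 and 8.21 in obese kidney and rose by 1.48 ± 0.20. Kinase and cyclin thus both separated the groups completely. Ccnb2 and Ccna2, cyclins B2 and A2, rose by 1.82 and 1.45, and the centromere protein gene Cenpf by 1.83.

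Aurkb, the kinase of the chromosomal passenger complex, showed the largest rise of the 40 genes, from 0.109, 0.356 and 1.48 CPM in lean to 1.79, 2.63 and 3.94 in obese kidney (2.30 ± 0.32, 4.92-fold, adjusted p = 1.495e-05). Its partners Birc5 (survivin) and Cdca8 (borealin) rose by 1.63 and 0.68. Next to Aurkb came Kif2c (1.94), a kinesin that takes microtubules apart at kinetochores, and Prc1 (1.91), which bundles microtubules of the central spindle. The other motors Kif20a (1.77), Kif23 (1.56) and Cenpe (1.497) rose as well. Kif11, the motor that pushes spindle poles apart, had 66.6, 75.4 and 95.8 CPM in lean and 50.5, 80.6 and 94.9 in obese kidney, and the difference was 0.00 ± 0.10 (adjusted p = 0.988). It was the mitosis gene with the least difference between these groups.

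Kinases of mitotic entry and of the spindle checkpoint mostly rose. Plk1 rose by 1.66, Bub1b by 1.55, Bub1 by 1.23, Ttk by 1.07 and Aurka by 0.72. Melk, a kinase of the same transcriptional programme, went the other way, with 15.6, 31.4 and 39.7 CPM in lean and 16.5, 20.4 and 30.3 in obese kidney, a fall of -0.49 ± 0.13 (adjusted p = 0.00634). All 10 obese kidneys lay below the lean median for Melk, and the lowest lean value was that of replicate 8, while the other 9 lean kidneys lay between 26.7 and 39.7. Cdc20, which activates the anaphase-promoting complex, had 2.37, 3.82 and 4.78 CPM in lean and 4.96, 6.09 and 7.83 in obese kidney, a change of 0.79 ± 0.11 (adjusted p = 2.537e-05) with no overlap. Ube2c, the ubiquitin-conjugating enzyme of that complex, rose by 1.61, and the cytokinesis genes Anln and Racgap1 by 1.78 and 0.80.

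Of the spindle proteins, Nusap1 rose by 1.15. Tpx2, which activates Aurora A on the spindle, did not pass the test with all libraries (0.53, adjusted p = 0.324). Its level in lean replicate 8 was 18.9 CPM against 1.28 to 3.82 in the other lean kidneys, and without that library it rose by 1.31 ± 0.16. Leaving out replicate 8 gave 36 genes higher and 1 lower. Among the transcription factors, Mybl2 had 0.326, 0.882 and 1.36 CPM in lean and 0.475, 1.46 and 2.32 in obese kidney and rose by 0.77 (adjusted p = 0.027). Foxm1 had 0, 1.85 and 3.05 CPM in lean and 1.05, 2.86 and 5.00 in obese kidney, and the difference of 0.78 did not pass (adjusted p = 0.149). Both factors overlapped widely between the groups.

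**Figure D2:**
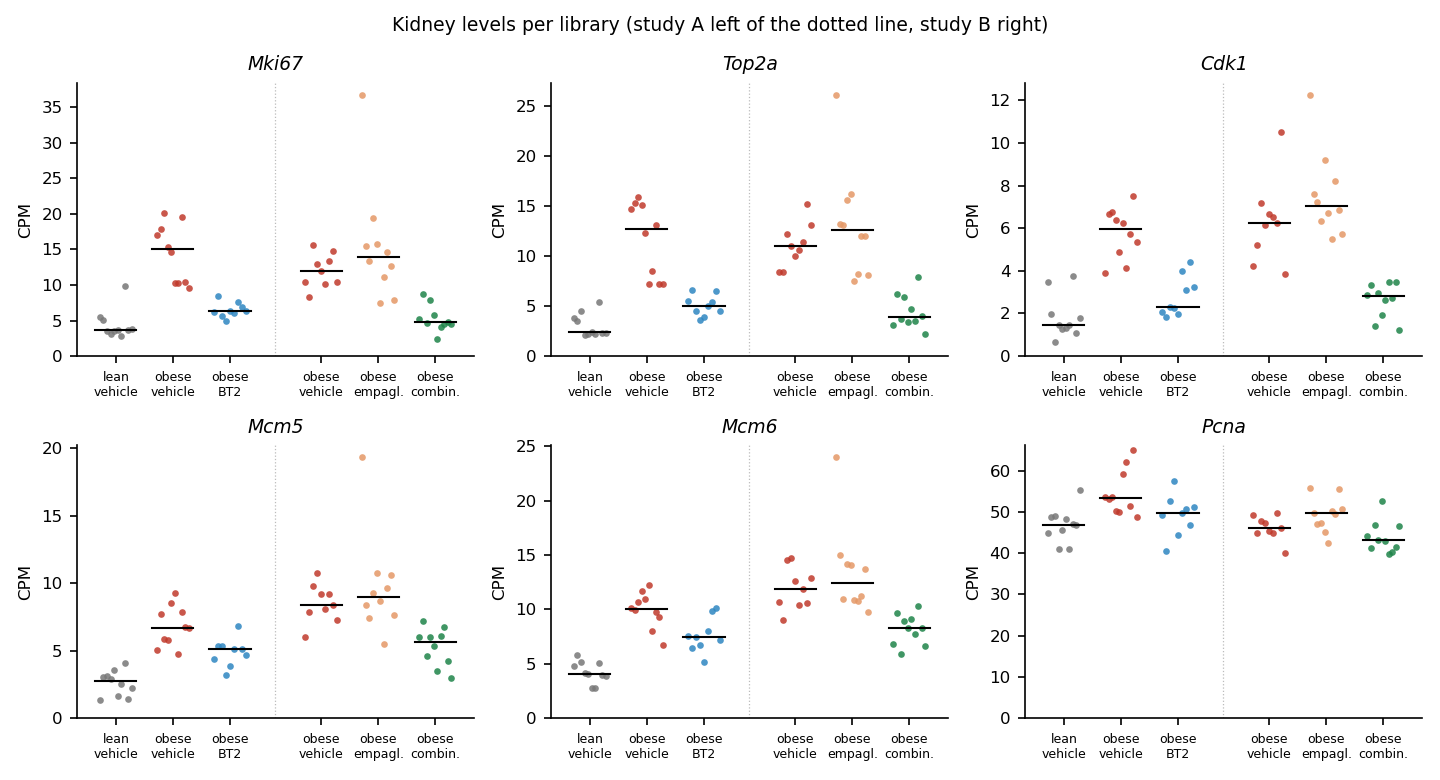
CPM (linear axis) of Mki67, Top2a, Cdk1, Mcm5, Mcm6 and Pcna in each kidney library of the 6 groups, with a bar at the group median and a dotted line between study A and study B. For Top2a the obese vehicle kidneys of study A (7.24 to 15.9) lie above all lean kidneys (2.07 to 5.45) and above all BT2 kidneys (3.59 to 6.60), and 1 empagliflozin kidney reaches 26.1.

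Other genes of the cycle, from lists outside the 40, moved less uniformly in obese kidney. Of 81 that were tested, 43 rose and 3 fell with a median of 0.30: 9 rose and 1 fell of 30 regulators of G1 and the checkpoints, 17 rose and 1 fell of 26 further replication genes, and 17 rose and 1 fell of 25 further mitosis genes. Cdc6, which loads the MCM helicase, had 0.293, 0.538 and 0.790 CPM in lean and 1.35, 1.62 and 1.85 in obese kidney and rose by 1.51, with no overlap. Cdkn1a, a CDK inhibitor gene, rose by 1.86 at the same time, from a lean median of 2.73 to an obese median of 13.9 CPM. The mitotic kinase gene Pbk rose by 2.44, the centromeric histone gene Cenpa by 1.73, the spindle gene Tacc3 by 1.19 and the large ribonucleotide reductase subunit Rrm1 by 0.15. Ccnd1 (cyclin D1, 0.11) and the inhibitor gene Cdkn1b (0.09) did not pass the test, and Ccne1 (cyclin E1) was too low to be tested.

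Markers of other cells moved with obesity too. Of the myeloid markers 9 of 10 rose, of the lymphoid markers 4 of 6 tested, of the tubule injury markers 7 of 7 and of the fibroblast markers 4 of 8, while 7 of 8 proximal tubule markers and 5 of 8 endothelial markers fell. The summed myeloid level was 375 to 889 CPM in lean and 982 to 1362 in obese kidney. The summed lymphoid level was 6.10 to 17.1 and 14.2 to 25.5 CPM, and the summed injury level 336 to 3216 and 3571 to 7941 CPM. Proximal tubule markers summed to 7419 to 16830 CPM in lean and 7381 to 10660 in obese kidney. Lean replicate 8 gave the highest myeloid and injury sums and the lowest proximal tubule sum of its group; the other 9 lean kidneys lay between 375 and 510, between 336 and 797 and between 14420 and 16830 CPM. Their part in the cell cycle result was not tested. Within plate 1 alone 34 of the 40 genes rose and 1 fell, where 4210 of 14294 genes were called. Within plate 2 alone 19 rose, where 976 of 14534 were called. In the authors' deposited table for this comparison 36 rose and 1 fell at an adjusted p under 0.05. Of its genes, 34.2% were called. The authors left out lean replicate 8, which the main fit here includes. Without that library edgeR also gave 36 genes higher and 1 lower, where 5423 of 14240 genes were called.

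BT2 was then compared with vehicle in obese kidney, which asks what inhibition of BDK changes in the diseased organ. Cell cycle genes were lower with BT2: 23 of 40 fell, none rose, and the median was -0.64 against 0.00 over all genes. Of all genes tested, 8.21% were called and 4.46% were called lower. The fall lay mainly in mitosis genes, 19 of 28 with a median of -0.78, while 4 of 10 replication genes fell with a median of -0.24. This comparison and that of obese with lean kidney use the same obese vehicle libraries, so the genes called in both were not counted.

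Mki67 had 4.91, 6.32 and 8.42 CPM with BT2, against 9.61 to 20.2 on vehicle, a change of -1.12 ± 0.14 (2.18-fold lower, adjusted p = 6.077e-05). Top2a had 3.59, 5.00 and 6.60 CPM, against 7.24 to 15.9, a change of -1.13 ± 0.16 (adjusted p = 0.000141). Every BT2 kidney lay below every vehicle kidney for these genes and for Kif20a (-1.17) and Tpx2 (-0.77), which held for 0.346% of all genes. Cdk1 had 1.82, 2.32 and 4.41 CPM with BT2 and changed by -1.06 ± 0.17 (adjusted p = 0.00057). Ccnb1 had 2.05, 2.88 and 4.55 CPM and changed by -0.91 ± 0.16 (adjusted p = 0.00135). All 9 BT2 kidneys lay below the vehicle median for both, although the ranges overlapped. Ccna2 and Ccnb2 changed by -1.004 and -0.75, so Cdk1 and the mitotic cyclin genes Ccnb1, Ccnb2 and Ccna2 all fell.

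Anln, which anchors the contractile ring, showed the largest fall (-1.25 ± 0.22). Aurkb had 0.707, 1.60 and 2.29 CPM with BT2 and fell by 0.73 on the log2 scale (adjusted p = 0.0254), and its partners Birc5 (-0.51) and Cdca8 (-0.41) did not pass. Cdc20 had 3.02, 3.93 and 5.52 CPM and changed by -0.58 ± 0.13 (adjusted p = 0.0115). Of the kinesins, Kif20a, Kif23 (-0.83), Cenpe (-0.83) and Kif11 (-0.41) fell, and Kif2c (-0.76, adjusted p = 0.0608) did not pass. Kif11, which did not differ between obese and lean kidney, had 46.5, 54.0 and 76.0 CPM with BT2 against 50.5 to 94.9 on vehicle. Among the kinases Bub1 (-1.11) and Ttk (-0.88) fell, and Bub1b (-0.69, adjusted p = 0.0554), Plk1 (-0.58), Aurka (-0.33) and Melk (-0.34) did not pass. Prc1 (-0.87), Nusap1 (-0.79) and Cenpf (-1.12) fell too, and Ube2c (-0.41) and Racgap1 (-0.09) did not pass.

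Rrm2 led the replication genes, with 2.95, 3.75 and 5.94 CPM with BT2 against 4.90 to 11.9 on vehicle (-0.95 ± 0.17, adjusted p = 0.00155). Mcm5 had 3.23, 5.12 and 6.79 CPM and changed by -0.49 ± 0.14 (adjusted p = 0.0405), close to Mcm3 (-0.47) and Mcm4 (-0.33). Rrm2 and these 3 helicase subunits were the replication genes that fell. Mcm6 had 5.18, 7.48 and 10.1 CPM and did not pass (-0.38, adjusted p = 0.0664). Mcm2 had 14.5, 19.0 and 22.1 CPM and changed by 0.09, and Mcm7 changed by 0.06. Pcna had 40.5, 49.7 and 57.4 CPM with a difference of -0.15 (adjusted p = 0.173), Tyms had 28.3, 33.9 and 40.8 CPM with -0.01, and Tk1 differed by 0.20. None of these passed the test, and Tk1, Mcm2 and Mcm7 were the 3 genes with values above 0. Foxm1 (0, 1.69 and 3.68 CPM) and Mybl2 (0.598, 1.43 and 1.93 CPM) did not pass either, with differences of -0.49 and -0.29.

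Outside the 40 genes, 13 of 27 further mitosis genes fell with BT2, among them Hmmr (-0.91) and Ect2 (-0.77), which act on the spindle and in cytokinesis, the kinetochore gene Spc25 (-1.27) and Pbk (-1.48). Of 26 further replication genes 1 fell, and of 32 regulators of G1 and the checkpoints 2 rose and 3 fell. Cdc6 (-0.55, adjusted p = 0.0775), Cdkn1a (-0.18), Cdkn1b (0.09), Ccnd1 (0.02), Ccne1 (-0.23) and Rrm1 (-0.09) did not pass. Of the myeloid markers 4 of 10 fell and of the lymphoid markers 2 of 7 tested. Their summed levels were 653 to 946 and 12.7 to 19.8 CPM with BT2, against 982 to 1362 and 14.2 to 25.5 on vehicle, and their part in the result was not tested. None of the 7 injury markers tested fell, and their sum was 3513 to 5414 CPM with BT2.

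Counts of falls with BT2 differed between the 2 sequencing plates, a difference that was not itself tested. Plate 1 alone gave 15 lower genes with a median of -0.68, where 194 of 14453 genes were called. Plate 2 alone gave none with a median of -0.55, where 70 of 14500 genes were called. On plate 2, 27 of 28 mitosis genes still had values below 0 and Mki67 changed by -0.86. With the replicate number as a block, 15 genes fell, where 412 of 14447 genes were called. The authors' deposited table has 26 of the 40 genes lower and none higher, with 11.4% of its genes called.

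BT2-treated obese kidney was also compared directly with lean kidney, with the same libraries as in the comparisons above. Of 35 genes past the filter on low counts, 20 were higher and 2 lower, where 44.9% of all genes were called, 21.9% higher and 23.0% lower. Plk1, Kif2c, Birc5, Ube2c and Ttk were too low to be tested. The medians of the classes lay close together here, with 0.57 and 8 of 10 higher for replication genes and 0.54 with 12 of 23 higher for mitosis genes. Aurkb (1.56), Ccnb2 (1.03) and Prc1 (1.01) showed the largest differences, and Mcm4 (0.22) the smallest among those that rose. Mcm2 (0.58) and Tk1 (0.63), which BT2 had not lowered, were higher in every BT2 kidney than in every lean kidney, as were 2.43% of all genes. Mcm5 (0.89), Mcm6 (0.85), Rrm2 (0.57), Top2a (0.71), Ccnb1 (0.54) and Mki67 (0.50, adjusted p = 0.0471) rose with overlapping ranges, while Cdk1 (0.56, adjusted p = 0.0923), Cdc20 (0.18), Pcna (0.08), Tyms (0.10), Mybl2 (0.46) and Foxm1 (0.29) did not pass.

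Melk and Kif11 were lower in BT2-treated obese than in lean kidney. Melk had 11.6, 16.7 and 21.6 CPM with BT2 against 15.6 to 39.7 in lean, a change of -0.83 ± 0.14 (adjusted p = 0.000119), and Kif11 changed by -0.43 ± 0.08 (adjusted p = 0.000438). All 9 BT2 kidneys lay below the lean median for Melk and 8 of 9 for Kif11. Leaving out lean replicate 8 gave 24 genes higher and 2 lower of 34 tested, Cdk1 rose (0.81), and Tpx2 turned from -0.29 to 0.55 (adjusted p = 0.0116). Plate 1 alone gave 10 higher and 1 lower, where 3255 of 13854 genes were called. Plate 2 alone gave 8 higher and 2 lower, where 3792 of 14244 were called. Markers of other cells differed in the same comparison: 9 of 10 myeloid, 3 of 6 lymphoid, 6 of 7 injury and 4 of 8 fibroblast markers were higher in BT2-treated than in lean kidney, and 7 of 8 proximal tubule markers were lower. Havcr1 was higher by 3.55, Col1a1 by 1.08, Cd3e by 0.95, the macrophage receptor gene Csf1r by 0.72 and Ptprc by 0.43, and the proximal tubule receptor gene Lrp2 changed by -1.01. The myeloid sum was 653 to 946 CPM with BT2 against 375 to 889 in lean, and 375 to 510 without lean replicate 8. The injury sum was 3513 to 5414 against 336 to 3216, and 336 to 797 without that library. Their part in the cell cycle result was not tested. Of 70 other cell cycle genes tested, 26 rose and 7 fell, among them the CDK inhibitor Cdkn1c (1.16), DNA ligase Lig1 (0.41) and the kinesin Kifc1 (-1.09).

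**Figure D3:**
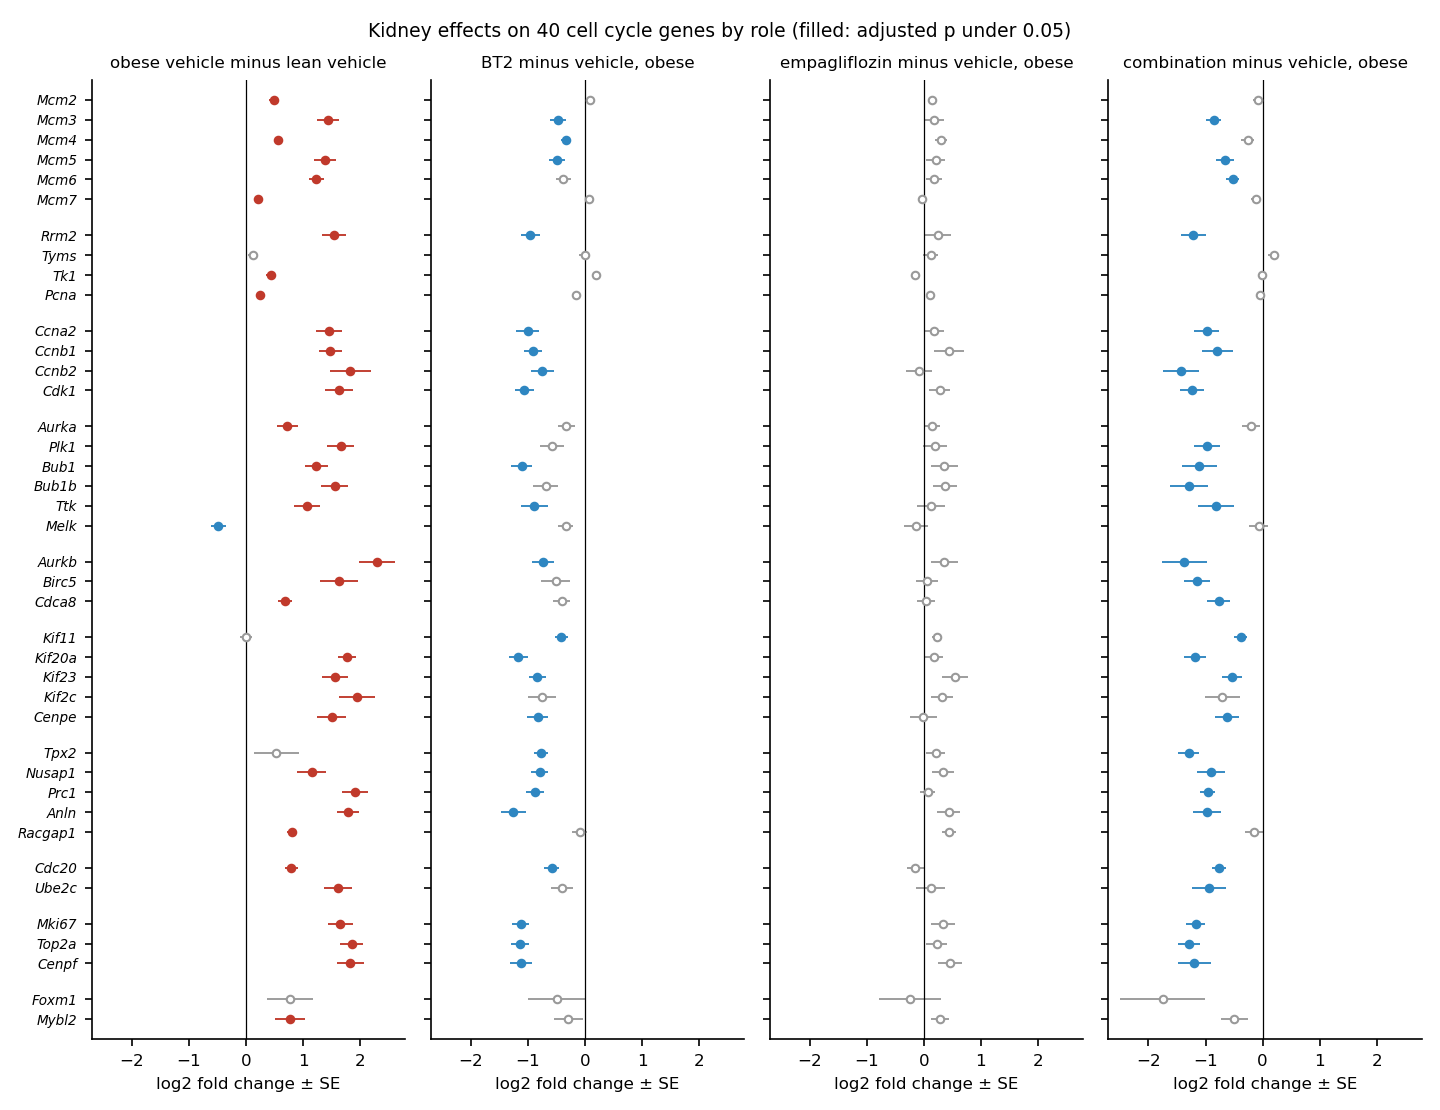
Log2 fold changes with standard errors of the 40 genes, grouped by role, in 4 kidney comparisons (obese against lean, and BT2, empagliflozin and the combination against vehicle); filled points passed the test. Values lie to the right of 0 for all genes except Melk in obesity (35 filled), to the left for most with BT2 (23 filled) and the combination (28 filled), and around 0 with none filled for empagliflozin.

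Empagliflozin alone was compared with vehicle in study B to ask what SGLT2 inhibition changes by itself. None of the 40 genes passed edgeR's test, where 0.651% of all genes were called. At an unadjusted p under 0.05, 7 genes were higher and 1 was lower, and 18.3% of all genes reached that level. DESeq2 called 1 of the 40 higher, where it called 1.80% of all genes with an adjusted p higher: Racgap1, a cytokinesis gene whose edgeR value was 0.44 ± 0.13 (adjusted p = 0.0842). The median was 0.19 against 0.01 over all genes, with 33 values above 0 and 7 below.

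Mki67 had 8.27, 11.97 and 15.6 CPM on vehicle and 7.44, 14.0 and 36.7 with empagliflozin (0.34 ± 0.21, adjusted p = 0.409). Top2a had 8.44, 11.1 and 15.3 CPM on vehicle and 7.54, 12.6 and 26.1 with empagliflozin, and Cdk1 3.83, 6.24 and 10.5 against 5.48, 7.04 and 12.2. The highest values of Mki67 and Top2a came from empagliflozin replicate 1, and the ranges overlapped along most of their length. Mcm5 had 6.02, 8.35 and 10.8 CPM on vehicle and 5.48, 8.98 and 19.3 with empagliflozin, Mcm6 9.01, 11.9 and 14.7 against 9.81, 12.5 and 24.0, and Rrm2 3.25, 7.62 and 10.5 against 4.98, 8.48 and 18.9. Replicate 1 was again the highest in each; the rest of its group reached 10.8, 15.0 and 11.4 CPM. Its lymphoid markers summed to 565 CPM and its Cd3e, a T cell receptor subunit, was 16.9 CPM against 1.83 to 7.10 in the group; their part in its cell cycle values was not tested. Without replicate 1 the median of the 40 genes was 0.10 and Mki67 differed by 0.13, with no call. Plate 1 alone gave a median of 0.41 and plate 2 alone -0.07, with none of the 40 genes called. Of all genes, 2 of 14227 and 23 of 14169 were called.

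For the remaining genes the empagliflozin and vehicle ranges are given side by side. Ccnb1 had 0.957, 4.98 and 7.32 CPM on vehicle and 3.36, 6.15 and 10.9 with empagliflozin, Aurkb 1.87, 2.64 and 5.05 against 2.13, 3.18 and 6.73, and Cdc20 6.87, 7.93 and 11.7 against 4.53, 7.99 and 11.2. Mcm2 had 20.2, 22.2 and 24.9 CPM against 20.3, 25.6 and 28.5, Pcna 40.1, 46.0 and 49.7 against 42.5, 49.6 and 55.7, and Tyms 14.1, 19.9 and 24.6 against 15.7, 18.6 and 31.3. Mybl2 had 1.77, 2.61 and 3.38 CPM against 2.43, 2.78 and 4.70, and Foxm1 0, 2.75 and 4.95 against 0, 2.49 and 4.94. The ranges overlapped for all 8 of these genes, and none passed the test. Of 83 other cell cycle genes tested, Incenp, the scaffold of the chromosomal passenger complex, rose (0.48), and Ccnd1 (-0.20, adjusted p = 0.231), Cdkn1a (0.04), Cdkn1b (0.09), Cdc6 (0.24), Ccne1 (0.12) and Rrm1 (0.08) did not pass. The authors' deposited table has 1 of the 40 genes higher and none lower, with 4.12% of genes called.

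The combination of BT2 and empagliflozin was compared with the same vehicle group. Cell cycle genes were lower: 28 of 40 fell, none rose, and the median was -0.84. Of all genes tested, 31.6% were called and 14.5% were called lower. Of the mitosis genes 24 of 28 fell with a median of -0.97, and of the replication genes 4 of 10 with a median of -0.19. The BT2 and combination comparisons share no library. Of the 40 genes 22 fell in both, which is 95.7% of the 23 lower with BT2 and 78.6% of the 28 lower with the combination. Over all genes tested in both, 325 fell in both, which is 52.6% of those lower with BT2 and 15.9% of those lower with the combination.

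Mki67 had 2.38, 4.73 and 8.68 CPM with the combination against 8.27 to 15.6 on vehicle, a change of -1.17 ± 0.17 (2.26-fold lower, adjusted p = 2.174e-05). Top2a had 2.26, 3.90 and 7.89 CPM against 8.44 to 15.3, a change of -1.29 ± 0.19 (adjusted p = 2.371e-05). Cdk1 had 1.22, 2.80 and 3.49 CPM against 3.83 to 10.5, a change of -1.24 ± 0.21 (adjusted p = 0.000123). Every combination kidney lay below every vehicle kidney for Top2a and Cdk1, and also for Cdc20, Mcm3, Tpx2 and Prc1, a separation that held for 1.51% of all genes. For Mki67 the ranges touched between 8.27 and 8.68 CPM. Ccnb1 had 1.20, 2.87 and 4.15 CPM and changed by -0.79 ± 0.27 (adjusted p = 0.0297), and Ccnb2 showed the largest fall of the 28 (-1.43). Aurkb had 0, 1.09 and 2.08 CPM against 1.87 to 5.05, a change of -1.37 ± 0.39 (adjusted p = 0.0106), and its partners Birc5 (-1.15) and Cdca8 (-0.77) fell with it. These 3 genes of the passenger complex were thus lower.

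Cdc20 had 3.84, 5.42 and 6.26 CPM with the combination and changed by -0.76 ± 0.13 (adjusted p = 9.499e-05), and Ube2c changed by -0.94. The spindle genes Tpx2 (-1.30), Prc1 (-0.96), Nusap1 (-0.91) and Anln (-0.97) fell, and Racgap1 (-0.15) did not pass. Of the kinases Bub1b (-1.29), Bub1 (-1.11), Plk1 (-0.97) and Ttk (-0.82) fell, while Aurka (-0.21) and Melk (-0.07) did not pass. Kif20a (-1.18), Cenpe (-0.62), Kif23 (-0.54) and Kif11 (-0.39) fell, and Kif2c (-0.71, adjusted p = 0.0889) did not pass. Kif11 had 19.7, 32.3 and 39.4 CPM against 34.6 to 45.4 on vehicle. Cenpf (-1.20) and Ccna2 (-0.98) fell too.

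Among the replication genes Rrm2 had 2.08, 2.98 and 5.97 CPM with the combination and changed by -1.21 ± 0.21 (adjusted p = 0.000179). Mcm5 had 2.95, 5.65 and 7.22 CPM (-0.66 ± 0.15, adjusted p = 0.00223), and Mcm6 had 5.93, 8.31 and 10.4 CPM (-0.53 ± 0.12, adjusted p = 0.00216). All 10 combination kidneys lay below the vehicle median for Rrm2, Mcm5, Mcm6 and Mcm3 (-0.86). Mcm2 had 16.8, 21.0 and 24.4 CPM with a difference of -0.09, Pcna 39.7, 43.2 and 52.5 CPM with -0.05, and Tyms 18.4, 22.1 and 26.1 CPM with 0.20. These did not pass, nor did Mcm4 (-0.26), Mcm7 (-0.12) or Tk1 (-0.01). Mybl2 had 0.478, 1.74 and 2.78 CPM (-0.50, adjusted p = 0.113). Foxm1 was listed at 0 in 6 of 10 combination kidneys and reached 3.51 CPM, with a difference of -1.75 ± 0.75 that did not pass (adjusted p = 0.079).

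Regulators outside the 40 genes moved in both directions with the combination. Ccnd1 rose, from 79.0, 91.6 and 111 CPM on vehicle to 108, 116 and 160 (0.44, adjusted p = 0.000245), and Cdkn1a fell, from 14.4, 17.7 and 20.5 to 8.17, 11.7 and 15.4 CPM (-0.55, adjusted p = 0.000291). The phosphatase Cdc25a (0.38) and the inhibitor Cdkn1b (0.31) rose, Ccne1 (-1.07) fell, and Cdc6 (-0.64, adjusted p = 0.082) and Rrm1 (0.06) did not pass. In counts, 5 rose and 7 fell of 31 regulators of G1 and the checkpoints, 1 rose and 5 fell of 26 further replication genes, and 15 of 25 further mitosis genes fell. Markers of other cells were lower with the combination as well, 9 of 10 myeloid, 3 of 8 lymphoid, 6 of 7 injury and 5 of 7 fibroblast markers, and of 8 proximal tubule markers 3 rose and 4 fell. The myeloid sum was 359 to 608 CPM against 595 to 1276 on vehicle, the lymphoid sum 10.8 to 40.5 against 16.8 to 33.4, and the injury sum 2761 to 5247 against 4847 to 10610. Their part in the cell cycle result was not tested. Plate 1 alone gave 19 lower genes, where 2480 of 14181 genes were called, and plate 2 alone 13, where 1612 of 14302 were called. Combination replicates 1, 4, 5 and 7 hold transcripts of another tissue. Without them 24 of the 40 genes were lower, where 3565 of 14383 genes were called. The authors' deposited table also has 28 of the 40 genes lower, with 27.9% of genes called.

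Against empagliflozin alone, the combination lowered 32 of 40 genes with a median of -1.04, and none rose, where 31.7% of all genes were called and 14.8% were called lower. This comparison shares its combination libraries with the one against vehicle. Aurkb (-1.75), Cenpf (-1.64) and Bub1b (-1.64) showed the largest falls, and Pcna (-0.16), Mcm2 (-0.24) and Mcm4 (-0.57) the smallest. Mki67 changed by -1.50 ± 0.20, Top2a by -1.49, Cdk1 by -1.50, Ccnb1 by -1.22, Cdc20 by -0.61, Rrm2 by -1.44, Mcm5 by -0.86, Mcm6 by -0.69 and Mybl2 by -0.77. For Cdk1, Bub1b, Aurkb, Cenpf, Tpx2 and Prc1 no combination kidney reached the lowest empagliflozin kidney, which held for 1.27% of all genes. Tyms, Tk1, Mcm7, Aurka, Cenpe, Melk, Ttk and Foxm1 did not pass. Without empagliflozin replicate 1 the count was 31 and the median -0.92. Plate 1 alone gave 32 lower genes, where 3880 of 14047 genes were called, and plate 2 alone 11, where 1133 of 14113 were called. Without combination replicates 1, 4, 5 and 7, which hold transcripts of another tissue, 26 were lower, where 2950 of 14345 genes were called. Of the other cell cycle lists 6 rose and 33 fell of 82, with Incenp (-0.89), the polymerase subunit Pola1 (-0.72), Ccne1 (-1.14) and Cdkn1a (-0.58) lower and Ccnd1 (0.63) and Cdc25a (0.38) higher, and 9 of 10 myeloid and 5 of 7 lymphoid markers were lower too, and their part in the result was not tested.

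Whether the effect of BT2 differed with and without empagliflozin was tested as the difference between the combination's change against empagliflozin and BT2's change against vehicle. Tpx2 was the only one of the 40 genes that passed (-0.72 ± 0.21, adjusted p = 0.0252), where 9.17% of all genes were called and 3.76% with a negative difference. Differences for Mki67 (-0.38, adjusted p = 0.361), Top2a (-0.36), Cdk1 (-0.43) and Mcm5 (-0.37) did not pass. The test crosses the studies, so study and empagliflozin background cannot be told apart.

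**Figure D4:**
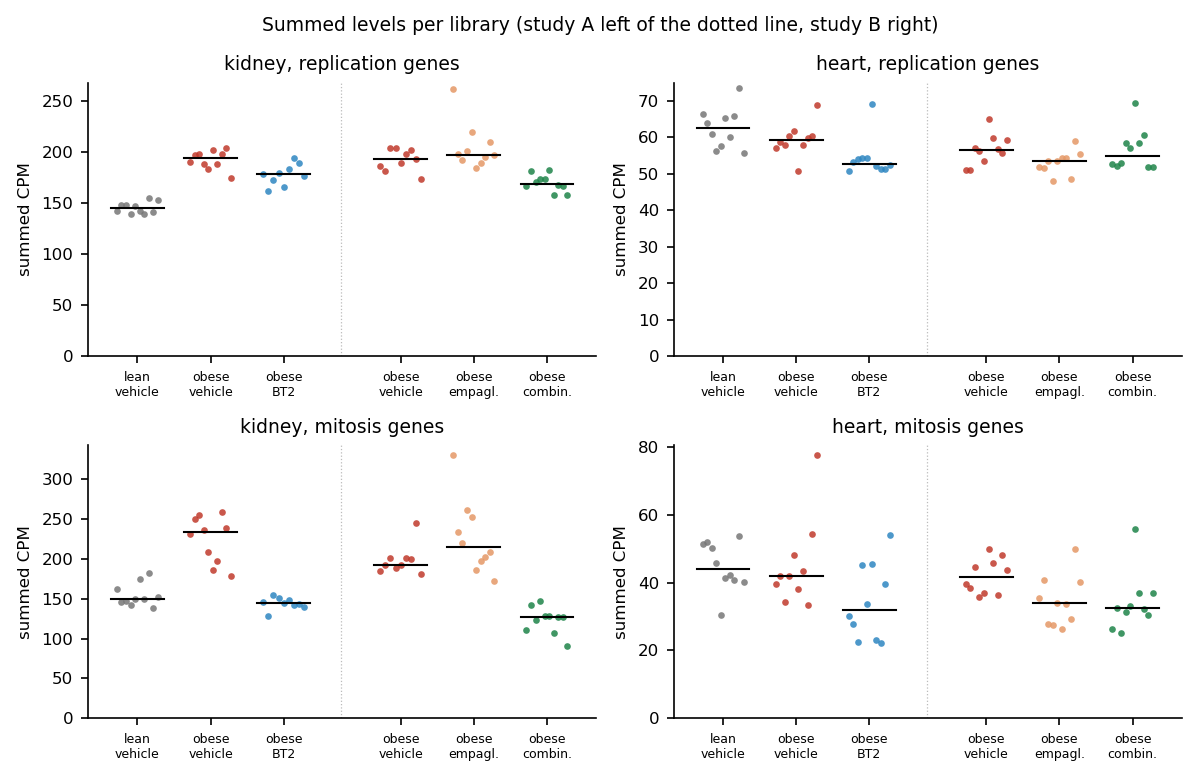
Summed CPM of the 10 replication genes and of the 28 mitosis genes in each library, by organ and group, with bars at the group median. In kidney the mitosis sum is 178.5 to 258.9 in obese vehicle and 127.8 to 154.1 in BT2 of study A, and 181.4 to 244.9 in vehicle and 90.04 to 146.7 in the combination of study B, while the heart groups overlap.

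Summed over their genes, both classes follow most of these comparisons on the CPM scale, though abundant genes such as Kif11 and Melk weigh most in a sum. Without lean replicate 8 their lean kidney medians were 75.5 and 31.6 CPM, and the mitosis sum had a median of 149.5 CPM. Neither gene rose with obesity, and both were lower in BT2-treated than in lean kidney. The mitosis sum had medians of 149.7 in lean, 233.7 in obese vehicle and 145.1 in BT2 kidney of study A. In study B they were 192.5 on vehicle, 214.5 with empagliflozin and 126.5 with the combination. The BT2 median thus lay below the lean median, although more mitosis genes rose than fell in BT2-treated against lean kidney. The replication sum had medians of 145.1, 194.2 and 178.6 in study A, and of 192.9, 197.5 and 168.9 in study B. Obese vehicle kidneys of study A (174.5 to 204.5) lay above all lean kidneys (139.1 to 155.3) for the replication sum. For the mitosis sum the ranges of lean (138.2 to 181.5) and obese vehicle kidney (178.5 to 258.9) met at lean replicate 8. Both vehicle groups hold untreated obese rats, yet Kif11 was 50.5 to 94.9 CPM in study A and 34.6 to 45.4 in study B, and Tyms 24.7 to 44.7 and 14.1 to 24.6. That gap between studies was not tested, and levels are compared within a study only.

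Heart libraries came from the same 6 treatment groups, and few of the 40 genes passed the test there. In obese against lean heart 34 of the 40 genes passed the filter, 1 rose and 1 fell, where 5.36% of all genes were called, and Bub1b, Birc5, Melk, Ttk, Foxm1 and Mybl2 were too low to be tested. Kif2c rose, from 0.490, 0.645 and 1.57 CPM in lean to 0.896, 1.10 and 3.13 in obese heart (0.90 ± 0.26, adjusted p = 0.0483). Mcm5 fell, from 2.08, 3.24 and 4.90 to 1.72, 2.22 and 2.97 CPM (-0.56 ± 0.15, adjusted p = 0.0304). Both pairs of ranges overlapped. The highest Kif2c value came from obese replicate 10, which was flagged for the atrial gene Myl7. The other 9 obese hearts reached 1.67 CPM, and without replicate 10 Kif2c did not pass (0.67, adjusted p = 0.108). With the replicate number as a block neither gene passed and the count was 0. Mki67 had 2.69, 5.92 and 8.28 CPM in lean and 3.21, 5.48 and 11.4 in obese heart, a difference of 0.05 (adjusted p = 0.933). Top2a had 1.72, 3.05 and 4.28 CPM in lean and 1.77, 3.02 and 3.94 in obese heart, and Cdk1 0.820, 1.32 and 2.27 against 0.430, 1.74 and 4.69. The groups overlapped almost fully for these 3 genes.

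None of the 31 genes tested passed with BT2 in heart, where 0.0558% of all genes were called. At an unadjusted p under 0.05, 6 were lower and none higher, where 7.86% of all genes reached that level, and DESeq2 also called none. Mki67 had 1.42, 3.14 and 5.97 CPM with BT2 (-0.77 ± 0.24, adjusted p = 0.287), and Top2a 1.15, 1.94 and 3.40. Both had their lowest and highest values below those on vehicle without passing the test. The median over the 31 genes was -0.33. Empagliflozin gave 0 calls of 26 genes tested in heart, against 0.107% of all genes, with a median of -0.21, and 5 genes lower at an unadjusted p under 0.05 (9.21% of all genes); DESeq2 called none.

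With the combination 1 of 26 genes fell in heart, where 5.13% of all genes were called and 1.55% were called lower. Kif23, a motor of the central spindle, had 0.932, 1.63 and 2.66 CPM on vehicle and 0.389, 0.862 and 1.43 with the combination (-0.88 ± 0.24, adjusted p = 0.0305). With the replicate number as a block, and also without the libraries that hold transcripts of another tissue, it did not pass and the count was 0. Mcm5 had 1.495, 2.16 and 3.10 CPM on vehicle and 1.43, 3.30 and 4.53 with the combination, a difference of 0.44 that did not pass (adjusted p = 0.145). Mki67 had 3.07, 4.30 and 6.77 CPM on vehicle, 1.33, 2.69 and 6.01 with empagliflozin and 1.65, 3.78 and 6.91 with the combination. Ranges of the 3 groups overlapped.

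Across the 6 heart groups, the median CPM ranged from 5.33 to 6.36 for Mcm2, from 2.65 to 3.87 for Mcm6, from 0.924 to 1.60 for Rrm2, from 5.02 to 7.53 for Tyms and from 17.1 to 19.6 for Pcna. They ranged from 0.687 to 1.14 for Ccnb1, from 0.664 to 1.26 for Aurkb, from 1.26 to 1.88 for Cdc20 and from 0.305 to 0.707 for Mybl2. Foxm1 was listed at 0 in 7 to 10 of the 10 hearts in each group. Kif11, whose kidney medians ran from 32.3 to 80.6 CPM, had heart medians of 0.606 to 1.29, and Melk 0.323 to 0.572 in heart against 16.7 to 31.4 in kidney; these organ levels were not tested. Of 71 other cell cycle genes tested in obese heart, 2 rose (the phosphatases Cdc25b, 0.65, and Cdc25a, 0.57) and 2 fell (Rbl2, -0.39, and Ccnd2, -0.43), and Cdkn1a (0.52, adjusted p = 0.0866) did not pass.

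**Figure D5:**
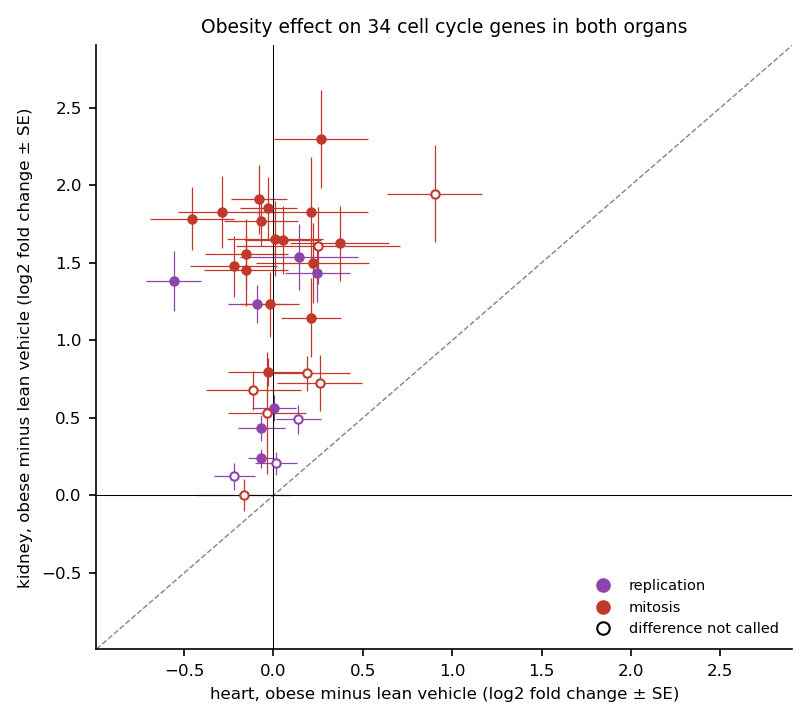
Log2 fold change of obese against lean in kidney (vertical) against heart (horizontal) for the 34 genes tested in both organs; the dashed line marks equal change, and filled points passed the test of the difference. Points lie above the line for most genes, with Anln and Cenpf farthest from it.

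The change with obesity was tested directly between the organs. For 26 of 40 genes it was more positive in kidney and for none more negative, with a median difference of 1.22. Of all genes, 14.0% were called and 7.64% were called with a positive difference. The low-count filter of these tests ran over both organs together. Bub1b, Birc5, Melk, Ttk, Foxm1 and Mybl2 were too low to be tested in heart alone, so their heart change rests on few counts. The same holds for 9 of the 40 genes in the BT2 test and 14 in the combination test. Anln (2.23 ± 0.31), Cenpf (2.11 ± 0.34) and Aurkb (2.04) differed most, followed by Prc1 (1.98), Mcm5 (1.94), Top2a (1.88), Mki67 (1.59) and Cdk1 (1.26). Pcna (0.30), Tk1 (0.49) and Mcm4 (0.55) had the smallest differences that passed. Without lean kidney replicate 8 the count was 30. The BT2 effect did not pass the test of a difference between organs for any of the 40 genes (0.757% of all genes were called; at an unadjusted p under 0.05, 2 were more positive and 8 more negative in kidney). The combination's effect was more negative in kidney for 7 of 40 genes, where 15.8% of all genes were called and 8.13% with a negative difference: Tpx2 (-1.13, adjusted p = 0.00473), Mcm5 (-1.11), Bub1 (-1.11), Mki67 (-0.88), Kif20a (-0.84), Nusap1 (-0.79) and Prc1 (-0.65). The combination's count was 4 without heart combination replicate 6 and 0 without the libraries that hold transcripts of another tissue. Libraries of the 2 organs were treated as separate samples, since the labels do not tie a kidney to a heart.

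Obese and lean kidney were compared in study A and the combination with vehicle in study B, so these comparisons share no library. Of the 40 genes, 26 rose with obesity and fell with the combination, which is 74.3% of the 35 and 92.9% of the 28. Over all genes tested in both, 1071 did so, which is 45.4% of those higher in obesity and 53.0% of those lower with the combination. The 26 are 22 mitosis genes and the replication genes Mcm3, Mcm5, Mcm6 and Rrm2. The other 9 that rose with obesity and were not called with the combination are Mcm2, Mcm4, Mcm7, Pcna, Tk1, Aurka, Kif2c, Racgap1 and Mybl2, 5 of them replication genes. Tyms and Foxm1 passed in no kidney comparison. All 6 genes whose promoter stretches are printed are among the 26, which follows from their choice as genes that carry the main results. Of the 7 whose stretches hold none of the 3 motifs, Bub1 and Bub1b are among the 26, and Melk, Aurka, Kif2c, Tk1 and Mybl2 are not. A link between motifs and changes was not tested.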

How the data were processed

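Poly-A RNA from frozen kidney and heart was sequenced with a stranded kit, per the labels' protocols. Salmon 1.5.2, STAR 2.7.3a, DESeq2 1.34.0 and the build mRatBN7.2 are listed in the submitters' processing notes. The deposited gene tables hold the authors' estimated counts, of which 6.851% are not whole. Their comparison tables hold the authors' normalised signal, log2 fold changes and adjusted p-values (authors' DESeq2), quoted here only where the authors' deposited table is named. Of the count columns 163 belong to these samples and 82 to no sample, and the latter were not used.

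Repeat runs of 43 libraries were summed and counts rounded to whole numbers. Genes were tested with edgeR 4.0.16 (R 4.3.3): low-count filter by group, TMM scaling, quasi-likelihood F test with the sequencing plate as covariate, on the groups compared only, without libraries under 1000000 counts, and Benjamini-Hochberg adjustment over all genes tested. Differences between effects were contrasts in 1 fit over the groups involved. Outside the 2 libraries left out, each kidney library held at least 4598872 counts, and each heart library at least 6735299. On simulated counts for obese against lean kidney the test recovered 87.3% of genes changed 2-fold and 21.8% of genes changed 1.5-fold. For the difference of the obesity change between kidney and heart it recovered 32.5% and 2.43%. The simulation used the same dispersion for every gene and no plate effect. Its changed genes were drawn from all genes past the filter, so recovery of genes at a few CPM was not measured apart. Each library is 1 rat per the series' text, so p-values measure spread between rats. Per the labels, plate 1 holds replicates 1 to 5 of each group and plate 2 the others.

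Replicate numbers are shared by the groups. Same-numbered libraries correlated in their deviations at -0.28 to 0.63, and every pair exceeded 0.1 in 1 of 10 comparisons, obese against lean heart. Alternatives were DESeq2 1.42.0, its size factors, no filter, no plate term, a replicate block, single plates, all libraries, all 6 groups of an organ in 1 fit, and fits without lean kidney replicate 8 or the libraries with another tissue's transcripts. Leaving out empagliflozin kidney replicate 1, obese vehicle heart replicate 10 of study A or combination heart replicate 6 was chosen after seeing the data.

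The 41 genes and the lists beside them (92 of 96 other cell cycle genes found, and cell type markers) were chosen with earlier results of these data known. Full group values are given for Mki67, Top2a, Cdk1, Ccnb1, Aurkb, Cdc20, Mcm2, Mcm5, Mcm6, Rrm2, Pcna, Tyms, Foxm1, Mybl2 and any gene called against the main direction, with the 3 highest and 3 lowest changes called per comparison. Of the other lists, Cdkn1a, Ccnd1, Cdc6, Rrm1, Ccne1, Cdkn1b and up to 4 called genes with the smallest adjusted p are named. CPM is not divided by transcript length, so levels of different genes are not compared. Promoter sequences are from RefSeq (GRCr8), another build than the authors', and were matched by symbol only.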

Additional observations from a re-analysis of the deposited data

Results flagged for a closer look

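Within groups of 10 or fewer, 18 of 132 sets of values (13.64%) had a library far from the rest by Dixon's test, where chance flags about 1 in 20. Empagliflozin kidney replicate 1 gave 5 of them as the highest value of its group: Mki67 at 36.7, Top2a at 26.1, Mcm5 at 19.3, Mcm6 at 24.0 and Rrm2 at 18.9 CPM, and its summed replication level of 262 CPM was also far above the rest. Lean kidney replicate 8 gave the highest Mki67 (9.80 CPM) and Aurkb (1.48 CPM). In study B vehicle kidney, replicate 9 was high for Cdk1 (10.5 CPM) and the summed mitosis level (245 CPM), and replicate 10 was the lowest for Pcna (40.1 CPM). Combination kidney replicate 2 was high for Rrm2 (5.97 CPM).

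Hearts stood apart as well. Obese vehicle heart replicate 10 of study A was high for Mki67 (11.4 CPM) and the summed mitosis level (77.7 CPM). Combination heart replicate 6 was high for Mki67 (6.91 CPM) and for the summed mitosis (55.8 CPM) and replication levels (69.4 CPM), and BT2 heart replicate 6 for the summed replication level (69.1 CPM).

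Effects that differed between organs or studies by a test of the difference were the change with obesity, more positive in kidney for 26 genes led by Anln (2.23), Cenpf (2.11) and Aurkb (2.04), and the change with the combination, more negative in kidney for 7 genes led by Tpx2 (-1.13), Mcm5 (-1.11) and Bub1 (-1.11). The count of 26 stands where 7.64% of all genes were called with a positive difference. Of the 40 genes in that test, 6 were too low to be tested in heart alone. The count of 7 stands where 8.13% were called with a negative difference, and it was 0 without the libraries that hold transcripts of another tissue. The change with BT2 was more negative with than without empagliflozin for 1 gene, Tpx2 (-0.72). In that test 3.76% of all genes were called with a negative difference, and study and empagliflozin background cannot be told apart. Values are log2 differences of effects from edgeR's fit.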

How the results depend on the processing

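Of 128 counts recomputed under the alternatives, 101 stayed within 1.5 times of the value reported and 27 did not. Plate 2 alone gave 19 called genes for obese against lean kidney, 0 for BT2, 10 for BT2-treated against lean, 13 for the combination against vehicle and 11 against empagliflozin, and plate 1 alone gave 15 for BT2 and 11 for BT2-treated against lean; each plate holds fewer samples. With the replicate block 15 genes were called for BT2 in kidney, 0 in obese against lean heart and 0 for the combination in heart, and no other count moved by over 1.5 times. DESeq2 called 1 gene for empagliflozin in kidney. The 2 calls in obese against lean heart became 1, with Kif2c lost, with DESeq2's size factors, without the low-count filter, without the plate term, without the libraries of another tissue and without vehicle replicate 10, and 0 on plate 1 or plate 2 alone. In heart, empagliflozin gave 1 on plate 1, and the combination gave 0 without the filter, the plate term or the libraries of another tissue and on either plate. The combination's difference between kidney and heart gave 0 without the libraries of another tissue, 3 without the plate term and 4 without combination heart replicate 6. The cause was not tested in any of these.

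Of 4563 values of single genes, 4313 kept their direction and side of the threshold, 203 lost the call, 45 gained it and 2 reversed: Tpx2 in BT2-treated obese against lean kidney was 0.55 (adjusted p = 0.0116) without lean replicate 8 and the same without the libraries of another tissue. Without TMM scaling the summed replication level was 131.2 CPM in lean kidney and 68.74 CPM in lean heart. Within 100 bases before the start, CHR was in 0% of replication and 41.7% of mitosis windows, and E2F in 29.6% of the windows of other replication genes. This span lies inside the whole window, so its shares cannot be higher than those of the window. Many genes lie at a few CPM, so single libraries hold few counts of them, and changes under 2-fold were recovered less often in simulated data.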
